A study of Homo sapiens with 11 samples.

Results

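The genes described here are MYC and 40 genes of ribosome biogenesis and polyamine synthesis, 41 in all, chosen by name. Besides MYC they comprise 10 genes of RNA polymerase I and its factors, 7 core proteins of small nucleolar ribonucleoproteins, 8 and 11 processing factors of the small and the large ribosomal subunit, NCL and NPM1 as abundant nucleolar proteins, and the polyamine enzymes ODC1 and SRM. Each of the 41 symbols matched 1 of the 60656 rows of the expression table, and all 41 were among the 15045 rows with at least 1 TPM in at least 3 libraries, which were tested. TPM is the share of a transcript among all transcripts of a library after correction for its length.

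Expression came from 9 libraries of Z138, an established human mantle cell lymphoma line, all made from clone number 7, which carries a doxycycline-inducible Cas9 with a red fluorescent marker and 2 guides against the DNA methyltransferase gene DNMT3A. There were 3 uninduced libraries without treatment, 3 libraries taken after 5 days and 3 taken after 7 days of doxycycline at 2 ng/mL, numbered 1 to 3 in each group. According to the series design, replicates came from separately frozen vials of the clone that were induced on different days, and each RNA was pooled from 2 technical duplicates. Every group carried the inducible constructs, no library of doxycycline without guides was analysed here, and drug, Cas9 and knockout cannot be told apart.

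Ribosome production begins in the nucleolus, where RNA polymerase I transcribes the ribosomal RNA precursor and small nucleolar ribonucleoproteins modify it while large assemblies of processing factors cut and fold it into the small and the large subunit. MYC is a basic helix-loop-helix leucine zipper transcription factor that pairs with MAX, binds the E-box CACGTG and is known to activate genes at every one of these steps as well as ODC1. Mantle cell lymphoma is driven by cyclin D1, and high MYC activity is known as a feature of its aggressive forms.

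The uninduced replicates held 10.1, 9.71 and 10.4 TPM of the targeted gene DNMT3A, the day 5 replicates 18.9, 10.9 and 10.04 TPM and the day 7 replicates 10.96, 9.24 and 10.004 TPM, and the induced values overlapped the uninduced ones or lay above them, apart from 9.24 in day 7 replicate 2. Each library summed to 1e+06 TPM, and its sequencing depth is unknown. The summed level of 8 B cell and mantle cell markers lay between 1736 and 2114 TPM with all 8 detected, whereas 6 T and NK cell markers summed to 0.428 to 1.27 TPM and 6 myeloid markers to 0 to 0.784 TPM. The sum of 6 fibroblast and epithelial markers was 7.15 to 16.1 TPM, of which the collagen gene COL1A1 made up 7.04 to 16.1. The 100 most abundant rows took 33.3% to 33.8% of the TPM in the libraries numbered 2 and 34.5% to 36.9% in the others. In bulk samples, fewer cells of a type and less RNA per cell cannot be told apart.

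MYC itself was abundant and even across the libraries. The uninduced replicates held 714, 758 and 682 TPM of MYC, in the order of their numbers, the day 5 replicates 615, 763 and 674 TPM and the day 7 replicates 664, 812 and 716 TPM. Its lowest library, day 5 replicate 1, and its highest, day 7 replicate 2, differed 1.32-fold, and the 3 groups overlapped. The replicate numbered 2 was the highest of its group each time. Among its partners, MAX, with which MYC binds DNA, stood at 60.8, 62.5 and 63.5 TPM in the uninduced libraries, 91.4, 59.5 and 57.5 at day 5 and 55.9, 68.3 and 52.5 at day 7, with the highest value in day 5 replicate 1, the library with the least MYC.

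The E-box hexamer CACGTG was found in the promoter window of 17 of the 33 members for which the RefSeq promoter table (GRCh38.p14) held a window of 250 bases before to 50 bases after the start site, or 51.5%. Among all 9163 tested genes with a window the share was 13.1%. MYC is known to activate genes of these pathways, so a higher share is not independent of how the members were chosen. The windows compared were not matched for base content. In textbook lists of other genes it was 34.2% for small subunit factors, 31.6% for large subunit factors and 45.5% for MYC targets. For MYC partners and antagonists it was 23.5% and for polyamine genes 11.1%. For RNA polymerase I genes it was 7.69%, and for assembly factors of small nucleolar ribonucleoproteins 0%. Counted by window rather than by gene, 39.5% of 43 member windows held it, against 9.74% of 13216 windows of tested genes and 7.26% of all 35116 windows. CACGTG reads the same on both strands. With CACGCG, a second E-box form that MYC is known to bind, counted on either strand as well, the share was 72.7% of members and 32.3% of tested genes. The 19 matches lay between base −199 and base 36 from the start site, 16 of them within 50 bases of it. The 7 sites below belong to the members with the most matches and, among those with 1 match, to the 3 with the smallest p for a difference between replicate numbers. They are shown with 12 bases on either side, with the hexamer in capitals and its first base counted from the start site.
ODC1 at −29 (chr2:10448024-10448053, minus strand): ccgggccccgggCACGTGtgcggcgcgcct
ODC1 at 6 (chr2:10447990-10448019, minus strand): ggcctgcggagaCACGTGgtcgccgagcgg
NOP10 at −170 (chr15:34343289-34343318, minus strand): gtagggacactcCACGTGttttagcctgca
NOP10 at −11 (chr15:34343130-34343159, minus strand): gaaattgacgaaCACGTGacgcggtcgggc
NOP14 at 16 (chr4:2963374-2963403, minus strand): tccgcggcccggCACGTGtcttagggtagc
PES1 at 14 (chr22:30591880-30591909, minus strand): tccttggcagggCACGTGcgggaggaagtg
MYBBP1A at 28 (chr17:4555340-4555369, minus strand): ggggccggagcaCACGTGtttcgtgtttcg
The whole upstream part of the NOP10 window is shown because both of its hexamers lie before the start site.
NOP10 upstream 250 bases (chr15:34343137-34343386, minus strand): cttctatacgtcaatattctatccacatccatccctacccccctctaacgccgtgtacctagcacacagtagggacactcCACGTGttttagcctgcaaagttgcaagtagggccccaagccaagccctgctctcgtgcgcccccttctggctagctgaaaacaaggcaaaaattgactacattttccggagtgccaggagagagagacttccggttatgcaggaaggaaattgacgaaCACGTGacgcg
ODC1 and NOP10 thus had 2 hexamers each in their windows, and NOP14, PES1 and MYBBP1A had 1 each, a short way downstream of the start. A match is a description of these letters and not a bound site. In the window of BYSL, DDX21, FBL, GAR1, GNL3, LYAR, NOP2, RRP9, SRM, UTP20, UTP4 and WDR43 there was 1 match each, and none was found for the 16 other members with a window.

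Levels of the members spanned more than 2 orders of magnitude. NPM1, the histone chaperone and nucleolar scaffold protein, was the most abundant with a mean of 1426 TPM over the 9 libraries, followed by NCL at 759, the box C/D methyltransferase FBL at 719 and MYC at 711. Means were 300 TPM or more for 9 members, 100 to 300 for 8, 20 to 100 for 21 and under 20 for 3. The 3 least abundant were UTP20, a scaffold of the small subunit processome, at 9.19 TPM, POLR1A, the largest subunit of RNA polymerase I, at 16.6 TPM, and WDR12, a partner of PES1 and BOP1, at 17.6 TPM. In 36 of 41 members the lowest of the 9 libraries was day 5 replicate 1, and in 39 members the highest was a library numbered 2. The share over all rows was not taken for either count, so neither is a result particular to the members. Together the 41 members took 0.615% of the TPM in day 5 replicate 1, 0.721% to 0.774% in the other 5 libraries numbered 1 or 3, and 0.932% to 1.01% in those numbered 2.

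**Figure D1:**
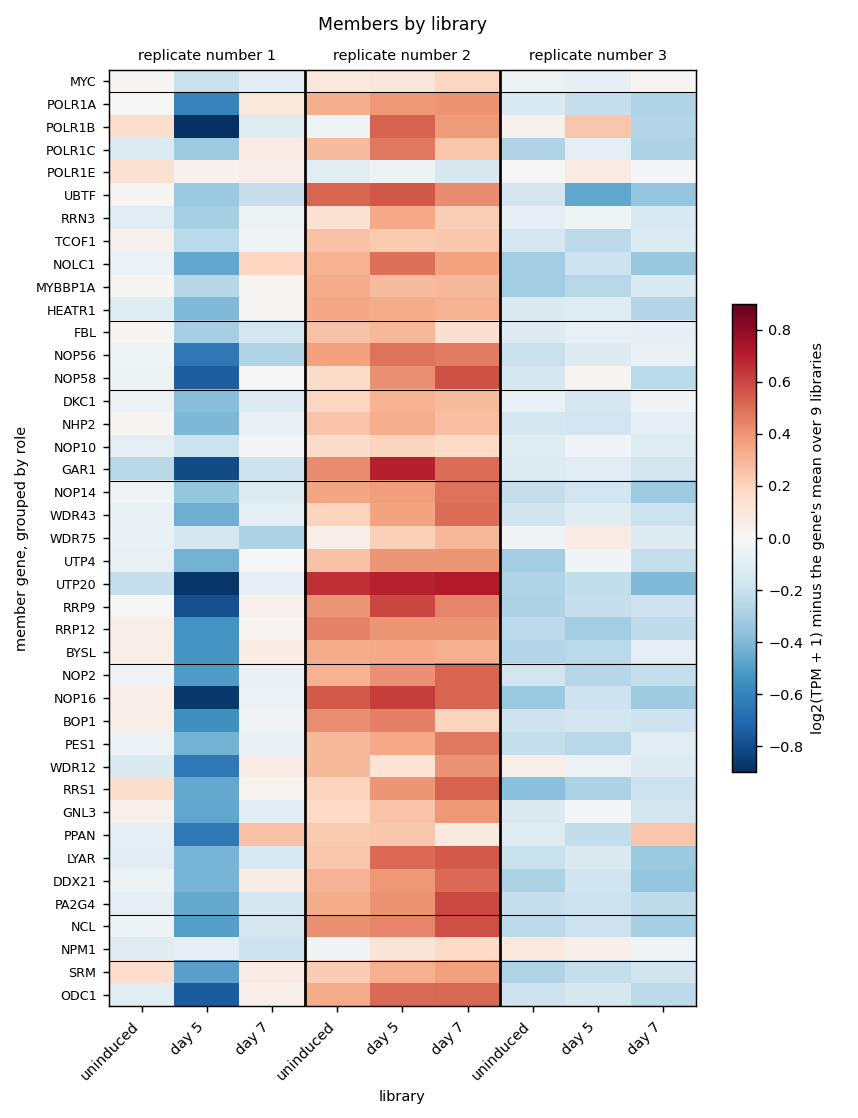
Relative level of the 41 members (rows, grouped by role, with MYC at the top) in the 9 libraries (columns, grouped by replicate number); colour is log2(TPM + 1) minus the mean of that gene over the 9 libraries, red for higher and blue for lower, and the colour scale ends at 0.9 on either side. The 3 columns of replicate number 2 are red for nearly all members, POLR1E being the exception at all 3 times, and day 5 replicate 1 is the bluest column.

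Induction was compared first, since the study set out to ask what loss of DNMT3A changes in these cells. No member passed the threshold (limma on log2(TPM + 1), Benjamini-Hochberg adjusted p under 0.05 over all 15045 rows) at day 5, at day 7, in day 7 against day 5 or for both induced groups together. Of all rows tested, 0.00665% passed at day 5, 0% at day 7, 0.00665% between the days and 0.00665% for both induced groups. At an unadjusted p under 0.05 there were likewise 0 members in each of these 4 comparisons, against 1.99%, 2.24%, 1.68% and 2.16% of all rows. For none of the 41 members did the 3 libraries of an induced group lie all above or all below the 3 uninduced ones. Over all rows, 2.34% lay entirely above and 3.22% entirely below at day 5, and 1.97% and 4.17% at day 7. No member had groups without overlap in day 7 against day 5 (1.85% above and 2.46% below over all rows) or for both induced groups against uninduced (0.372% above and 0.884% below). The median 95% interval reached 0.54 on either side of a member's log2 difference at day 5 and at day 7 in this fit, which holds no term for replicate number.

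Differences at day 5 leaned downwards and those at day 7 were centred near 0. At day 5, 8 members were above and 33 below the uninduced mean, with a median log2 difference of −0.10 against −0.018 for all rows. At day 7, 28 were above and 13 below, with a median of 0.027 against −0.021. Both comparisons share the uninduced libraries. Without day 5 replicate 1 the member median at day 5 was 0.082, and without uninduced replicate 2 it was 0.010, so its sign changed on leaving out either library. For day 7 the member median was −0.12 without day 7 replicate 2 and −0.058 without uninduced replicate 3. In day 7 against day 5, 36 members were above and 5 below with a median of 0.12, which was −0.077 without day 5 replicate 1 and −0.044 without day 7 replicate 2.

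For MYC the log2 difference was −0.07 at day 5 (SE 0.12, 95% interval −0.34 to 0.19, adjusted p = 1.000 by limma) and 0.02 at day 7 (SE 0.12, 95% interval −0.24 to 0.28). Of the other members, WDR12 had the smallest unadjusted p at day 5. WDR12 stood at 15.7, 21.4 and 17.95 TPM uninduced, 10.7, 18.96 and 16.6 at day 5 and 18.2, 23.2 and 15.9 at day 7, a log2 difference of −0.26 at day 5 (SE 0.22, limma adjusted p = 1.000). The day 5 range enclosed the lowest uninduced value, and replicate 1 was the lowest of the 3 both times. PPAN, the human counterpart of a yeast large subunit assembly factor, followed with −0.22, RRP12, a factor of small subunit maturation, with −0.24, BYSL, which acts late in the same pathway, with −0.19, and POLR1A with −0.21. At day 7 the member with the smallest p was PPAN, whose log2 difference was 0.18 with SE 0.21, followed by UBTF at −0.17, FBL at −0.08, RRS1 at 0.13 and POLR1E at −0.05.

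PPAN was also the member with the smallest p between the induced days. It stood at 59.5, 75.1 and 58.9 TPM uninduced, 40.3, 75.2 and 54.2 at day 5 and 76.3, 67.1 and 75.5 at day 7. The log2 difference of day 7 against day 5 was 0.40 (SE 0.21, limma adjusted p = 1.000), and 1 of the day 5 values, replicate 2, lay among those of day 7. Reads of PPAN cannot be fully separated from its read-through transcript with the neighbouring P2RY11. For both induced groups against uninduced, the 5 members with the smallest p were UBTF at −0.19, BOP1 at −0.14, RRP12 at −0.13, WDR12 at −0.11 and FBL at −0.08.

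Taken within a replicate number, the day 5 differences parted. Day 5 minus uninduced had a member median of −0.42 in number 1, with 1 member higher and 40 lower, of 0.074 in number 2, with 36 higher and 5 lower, and of 0.046 in number 3, with 29 higher and 12 lower. Day 7 minus uninduced had medians of −0.038, 0.090 and −0.017 in numbers 1 to 3. The median over all rows stayed between −0.051 and −0.0015 in these 6 pairs. At day 5, numbers 2 and 3 thus lay on the other side of 0 from number 1. Whether an uninduced library shares its culture day with the induced libraries of its number is not stated, so these pairs are a description.

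**Figure D2:**
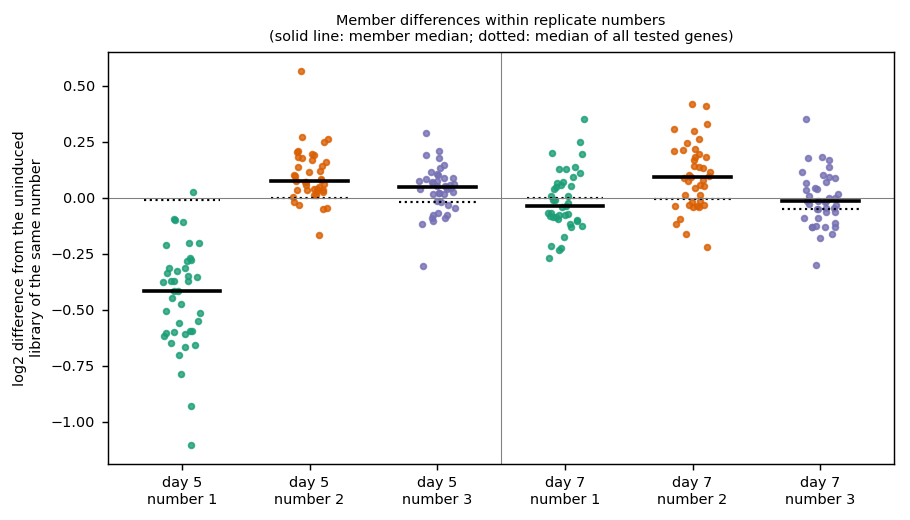
Log2(TPM + 1) difference of each of the 41 members (points) from the uninduced library of the same replicate number, at day 5 (left) and day 7 (right), with the member median as a solid line and the median of all 15045 rows as a dotted line. Day 5 number 1 lies at −0.42 with 40 of 41 points below 0, and the other 5 medians lie between −0.038 and 0.090.

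Between replicate numbers the members moved together. In number 2 against number 1, 27 of 41 members were higher and 0 lower, against 9.05% higher and 8.55% lower among all rows, in a limma fit with group as a covariate. In number 2 against number 3, 19 members were higher and 0 lower, against 4.62% higher and 3.2% lower. Number 3 against number 1 had 0 members higher and 0 lower, against 0.0399% and 0.0798% of all rows, and 0 members at an unadjusted p under 0.05, against 12.7%. The F test for any difference between the 3 numbers called 20 members, against 12.6% of all rows. The first 2 comparisons share the libraries numbered 2, so their values are set side by side and are not independent. The 3 libraries of a number are its 3 times, so these p-values do not measure spread between separate cultures of a number.

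The member median was 0.52 for number 2 against 1, 0.54 for number 2 against 3 and 0.006 for number 3 against 1, against 0.019, 0.047 and −0.029 over all rows. In 36 of 41 members every library numbered 2 lay above all 6 others, which held for 14.9% of all rows; in 1 member, POLR1E, every one lay below, as did 9.72% of all rows. The exceptions besides POLR1E were NPM1, POLR1B, WDR75 and PPAN. Within the uninduced group the member median of number 2 minus number 1 was 0.33, at day 5 it was 0.83 and at day 7 0.40. For number 2 minus number 3 it was 0.50, 0.55 and 0.58 at the same times. For number 3 minus number 1 it was −0.14 in the uninduced group with 36 of 41 members lower, 0.28 at day 5 with 40 higher and −0.15 at day 7 with 34 lower, so the 0.006 above averages differences of opposite sign.

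**Figure D3:**
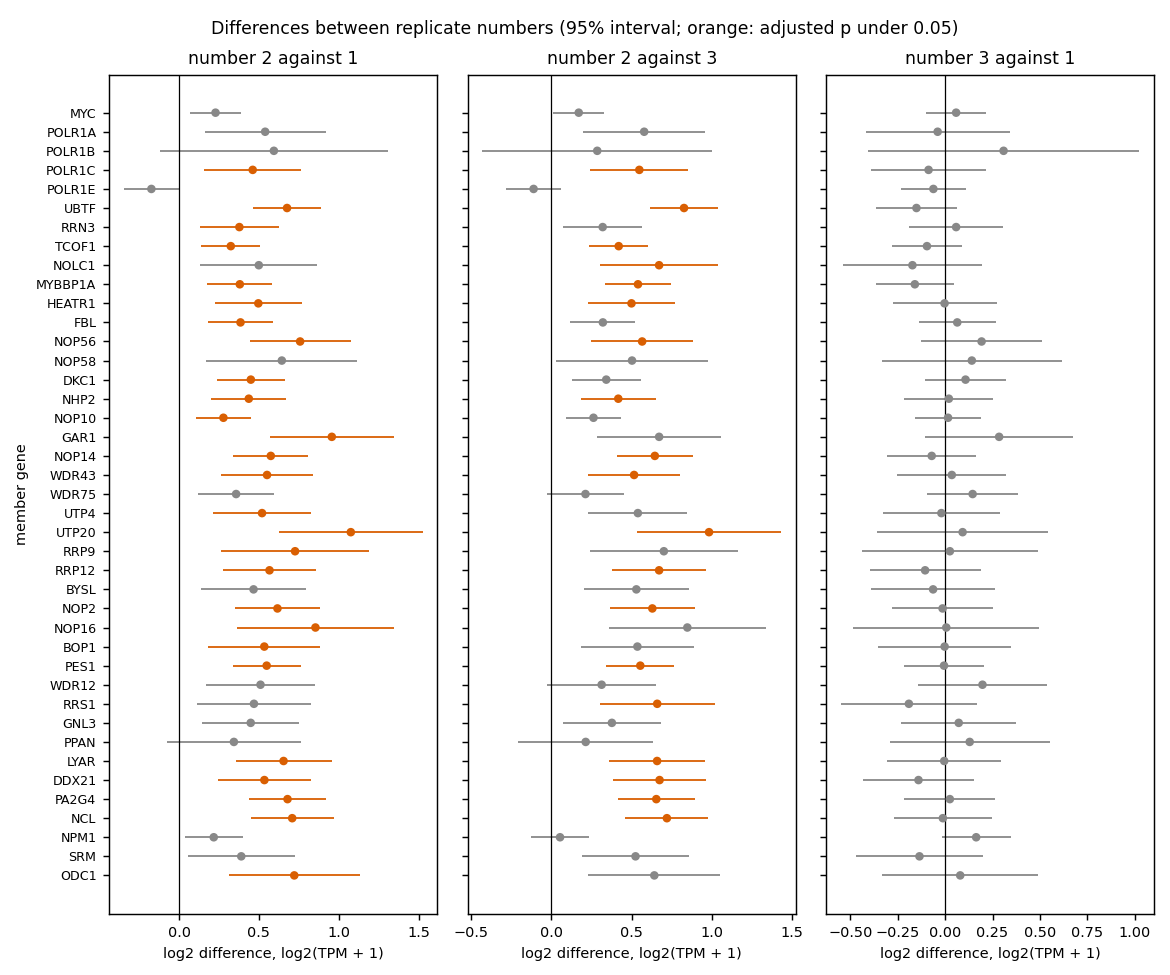
Log2 difference of the 41 members between replicate numbers on the log2(TPM + 1) scale, as points with 95% limma intervals, for number 2 against 1 (left), 2 against 3 (middle) and 3 against 1 (right); orange marks adjusted p under 0.05. In the left and middle panels 27 and 19 points are orange, all on the positive side, with POLR1E the sole point below 0, and no point is orange on the right.

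The number of members past the threshold rested on single libraries. Against number 1 it was 3 without day 5 replicate 2, 7 without day 7 replicate 2, 12 without uninduced replicate 2, 14 without day 5 replicate 1 and 16 without uninduced replicate 3. Against number 3 it was 34 without day 5 replicate 1, 14 without uninduced replicate 1, 11 without day 7 replicate 1, 1 without uninduced replicate 2, and 0 without day 5 replicate 2 or 3, day 7 replicate 2 or 3, or uninduced replicate 3. The count over all rows moved as well. Without 1 library it was 717 to 2258 against number 1, beside 2648 with every library. Against number 3 it was 1 to 1923, beside 1177. The member median stayed between 0.34 and 0.62 against number 1 and between 0.46 and 0.63 against number 3 in those fits. Other values moved with the numbers too: the B cell and mantle cell markers CD79B, MS4A1 and PAX5 were higher and SOX11 was lower in number 2 against 1, COL1A1 averaged 11.8 TPM in number 2, 8.26 in number 1 and 10.4 in number 3, the top 100 share was lowest in number 2, and the part of these in the result was not tested.

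For MYC the offset was smaller than for most members and did not pass. Libraries numbered 2 held 758, 763 and 812 TPM at the 3 times, those numbered 1 714, 615 and 664 TPM and those numbered 3 682, 674 and 716 TPM. All 3 values of number 2 lay above the 6 others. The log2 difference was 0.23 against number 1 (SE 0.067, limma adjusted p = 0.0567) and 0.17 against number 3 (SE 0.067, adjusted p = 0.151).

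Among the genes of RNA polymerase I, UBTF, the factor that binds and opens ribosomal DNA, had the smallest p of all members in both comparisons. UBTF stood at 121, 124 and 113 TPM in number 2 at the 3 times, at 84.8, 66.4 and 72.4 in number 1 and at 74.6, 60.3 and 65.8 in number 3. The lowest library of number 2 was thus above the highest of the others. The log2 difference was 0.68 against number 1 (SE 0.091, limma adjusted p = 0.00562) and 0.83 against number 3 (SE 0.091, adjusted p = 0.0145).

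Of the 10 genes of this role, 6 were higher in each comparison. TCOF1, the nucleolar phosphoprotein treacle, MYBBP1A, HEATR1, which links transcription to small subunit processing, and POLR1C, a subunit shared with RNA polymerase III, passed in both. MYBBP1A had 92.9 ± 1.71 TPM in number 2 (mean ± SD, n = 3), 71.4 ± 7.61 in number 1 and 63.6 ± 3.90 in number 3, with log2 differences of 0.38 and 0.54. HEATR1 had 34.1 ± 0.463, 24.1 ± 3.52 and 23.9 ± 1.44 TPM in numbers 2, 1 and 3. RRN3, the initiation factor that recruits the polymerase, passed against number 1 with a log2 difference of 0.38 (limma adjusted p = 0.0491), and NOLC1, a chaperone of small nucleolar ribonucleoproteins, passed against number 3 with 0.67 (adjusted p = 0.0469). RRN3 has pseudogene copies, as have NPM1 and PA2G4, and their read assignment is uncertain.

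The polymerase subunits themselves did not follow alike. POLR1E, a subunit specific to RNA polymerase I, stood at 49.1, 51.04 and 47.6 TPM in number 2, 57.9, 54.2 and 54.8 in number 1 and 52.5, 55.3 and 51.9 in number 3. These values ran the other way from the other members, with number 2 lowest at all 3 times, but the log2 differences of −0.17 and −0.11 did not pass (limma adjusted p = 0.142 and 0.359). POLR1A had 20.5, 21.5 and 21.7 TPM in number 2, 16.2, 10.3 and 17.4 in number 1 and 14.6, 13.9 and 13.2 in number 3, without overlap, and did not pass either (adjusted p = 0.0596 and 0.0688). POLR1B, which forms the catalytic core with POLR1A, was the most scattered of the 3, from 9.70 TPM in day 5 replicate 1 to 28.8 TPM in day 5 replicate 2.

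Of the 7 core proteins of small nucleolar ribonucleoproteins, 6 were higher against number 1 and 2 against number 3. NOP56, a scaffold protein of the box C/D particles that guide methylation, stood at 572, 622 and 613 TPM in number 2, 431, 284 and 367 in number 1 and 386, 409 and 425 in number 3, a log2 difference of 0.76 and 0.57 (limma adjusted p = 0.0129 and 0.0488). FBL, the methyltransferase of the same particles, had 840.3 ± 45.3 TPM in number 2 against 645 ± 70.5 and 672 ± 12.8 in numbers 1 and 3 and passed against number 1 (log2 difference 0.39). NOP58, the second scaffold protein, had log2 differences of 0.64 and 0.50 and passed in neither.

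All 4 proteins of the box H/ACA particles, which guide pseudouridylation, were higher against number 1. GAR1 had the largest log2 difference of them, 0.96 (SE 0.17, limma adjusted p = 0.0119), with 78.4, 94.7 and 82.7 TPM in number 2, 48.8, 32.7 and 50.8 in number 1 and 53.4, 53.98 and 51.5 in number 3. The synthase DKC1 followed with 0.45, NHP2 with 0.44 and NOP10 with 0.28. Against number 3, NHP2 passed (0.42, adjusted p = 0.0493), while GAR1 did not (0.67, 95% interval 0.28 to 1.06, adjusted p = 0.0523).

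**Figure D4:**
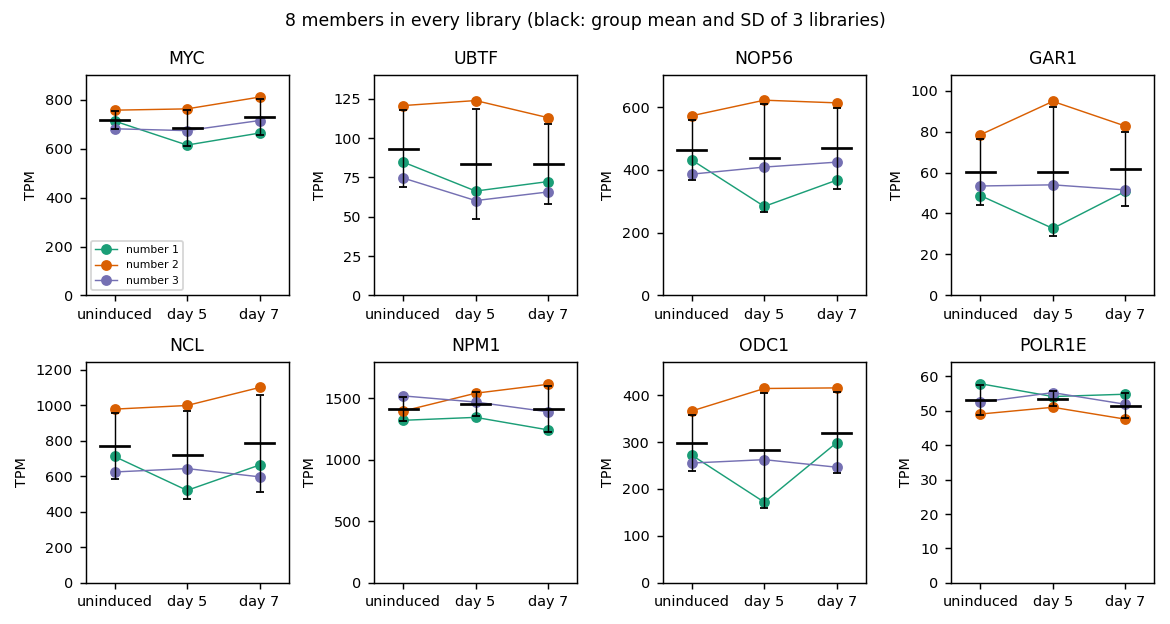
TPM of 8 members in every library by time, 1 line for each replicate number, with the group mean as a black bar and the SD of 3 libraries as a thin line; each axis starts at 0. Number 2 (orange) is the top line at all 3 times in MYC, UBTF, NOP56, GAR1, NCL and ODC1 and the bottom line in POLR1E, while in NPM1 the uninduced value of number 3 is highest, and the group means of each gene differ by less than the largest SD shown.

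Of 8 factors of the small subunit, 6 were higher against number 1 and 4 against number 3. UTP20 had the largest log2 difference of all 41 members, at low abundance, with 14.02, 14.4 and 14.6 TPM in number 2, 7.24, 4.19 and 8.01 in number 1 and 6.91, 7.16 and 6.23 in number 3. It came to 1.08 against number 1 (SE 0.19, limma adjusted p = 0.0128) and 0.98 against number 3 (adjusted p = 0.0344). NOP14, a component of the processome, had 90.7 ± 4.69 TPM in number 2 against 60.8 ± 6.77 and 57.6 ± 3.18, or 0.57 and 0.65 on the log2 scale. RRP12 and WDR43, a protein of the early transcription-linked subcomplex, also passed in both comparisons. UTP4 of the same subcomplex and RRP9, which binds the U3 small nucleolar RNA, passed against number 1, and BYSL and WDR75 passed in neither.

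Of 11 factors of the large subunit, 7 were higher against number 1 and 6 against number 3. PES1, BOP1 and WDR12 form a complex needed for maturation of the large subunit. PES1 had 164, 169 and 186 TPM in number 2, 129, 98.9 and 128 in number 1 and 115, 112 and 124 in number 3, a log2 difference of 0.55 and 0.55 (limma adjusted p = 0.0105 and 0.0277). BOP1 passed against number 1 (log2 difference 0.53), and WDR12 in neither.

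PA2G4, a protein that associates with ribosomes and their precursors, had 501, 526 and 600.2 TPM in number 2, 374, 288 and 357 in number 1 and 343, 348 and 339 in number 3, without overlap. Its log2 differences were 0.68 and 0.65 (limma adjusted p = 0.00794 and 0.0252). The ribosomal RNA methyltransferase NOP2, the helicase DDX21 and LYAR passed in both comparisons, with log2 differences from 0.53 for DDX21 to 0.65 for LYAR against number 1. NOP16 passed against number 1 (0.85), RRS1, which helps to place the smallest ribosomal RNA, against number 3 (0.66), and GNL3 (nucleostemin) and PPAN in neither.

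The most abundant pair parted. NCL (nucleolin) had 977, 998 and 1099 TPM in number 2, 711, 519.8 and 663 in number 1 and 623, 642 and 596 in number 3. Its log2 difference was 0.71 against number 1 and 0.72 against number 3 (limma adjusted p = 0.00896 and 0.0247). NPM1 had 1395, 1540.3 and 1613 TPM in number 2, 1320.2, 1344 and 1242 in number 1 and 1519, 1469 and 1389 in number 3, and the values of numbers 2 and 3 overlapped. Its log2 difference was 0.22 against number 1 and 0.054 against number 3 (95% interval −0.13 to 0.24) and passed in neither.

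In polyamine synthesis, ODC1, the rate-limiting enzyme, stood at 366, 414 and 416 TPM in number 2, 272, 172 and 299 in number 1 and 255, 263 and 246 in number 3. Against number 1 the log2 difference was 0.72 (SE 0.18, limma adjusted p = 0.0322), and against number 3 it was 0.64 (adjusted p = 0.0656). SRM, the spermidine synthase, had 280.2 ± 13.99 TPM in number 2 against 218 ± 49.3 and 194 ± 6.42 TPM and passed in neither comparison.

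Other genes of these pathways, taken from textbook lists, were read against the same background. Of all rows, 9.05% were higher and 8.55% lower in number 2 against 1, and 4.62% and 3.2% in number 2 against 3. Of 42 further small subunit factors 21 were higher and 0 lower in number 2 against 1, with a median log2 difference of 0.48, and the smallest p values were those of the acetyltransferase NAT10 (0.76, limma adjusted p = 0.00744) and the helicase DHX37 (0.70). Of 43 large subunit factors 11 were higher, with the smallest p for FTSJ3 (0.50), and 1, NOP53, was lower. Of 14 further RNA polymerase I genes 6 were higher, with the smallest p for the shared subunit POLR2H (0.59). Against number 3 the counts of these lists were 10 higher, 10 higher with 1 lower, and 4 higher. Of 23 other textbook MYC targets 14 were higher against number 1 and 6 against number 3, among them LDHA, lactate dehydrogenase A, at 896, 749 and 699 TPM in number 2 and 443, 374 and 417 in number 1. Of 11 assembly factors of small nucleolar ribonucleoproteins 3 were higher and 0 lower against number 1, with a median log2 difference of 0.33. ZNHIT6 and SHQ1 were among them. Against number 3, 2 of the 11 were higher and 0 lower. None of these lists had a gene past the threshold in number 3 against 1 or in any comparison of days.

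Partners and antagonists of MYC did not stand apart from all rows in how many passed. Of 19 tested, 1 was higher and 2 were lower in number 2 against 1, beside 9.05% and 8.55% of all rows, with a median log2 difference of −0.11. These were the ATPase RUVBL1 (0.70, limma adjusted p = 0.00920) and, lower, MXD3, which competes with MYC for MAX, and MYCL (−0.87 and −0.57). Against number 3, RUVBL1 was higher (0.59) and 0 of the 19 were lower. MXD3 stood at 13.2, 17.1 and 16.6 TPM in number 2, 27.3, 39.4 and 23.4 in number 1 and 25.5, 23.6 and 27.8 in number 3. Of 11 other genes of polyamine metabolism, 3 were higher and 4 lower in the same comparison. AMD1, which supplies the aminopropyl donor for spermidine, was higher (log2 difference 1.05), as were OAZ2 and EIF5A. Lower were SAT1, which starts polyamine catabolism, DHPS, which uses spermidine in the first step towards hypusine, and the arginase ARG2 (−0.70, −0.44 and −2.72), as was PAOX. Against number 3, 1 of the 11 was higher, AMD1 (1.05), and 2 were lower, DHPS and ARG2 (−0.38 and −1.46). NOP53, OAZ2, EIF5A, PAOX and the cell markers were named after their values were seen. ARG2 stood at 0.386, 0.384 and 0.587 TPM in number 2 and 5.64, 15.6 and 6.94 in number 1.

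A gene next to the members in function had values that parted by day. C12orf45 (NOPCHAP1), an assembly cofactor that brings NOP58 into box C/D particles, stood at 11.3, 14.96 and 5.73 TPM in the uninduced libraries, 5.23, 2.23 and 2.03 at day 5 and 2.61, 1.92 and 2.74 at day 7. Every induced library lay below every uninduced one, which held for 0.884% of all rows. The log2 difference was −1.48 at day 5 (SE 0.36, 95% interval −2.28 to −0.67) and −1.69 at day 7 (SE 0.36, 95% interval −2.49 to −0.88), and neither passed over all rows (limma adjusted p = 1.000 at day 7). Over the same libraries NOP58, its client, stood at 111, 128 and 103, 67.8, 152 and 117 and 115, 171 and 96.6 TPM. Earlier results of these data had named C12orf45, so its pattern is not independent of its choice. In the same assembly list 0 of 11 genes passed in any day comparison. Among the other lists, the small subunit factor KRR1 had 15.5, 21.6 and 15.4 TPM uninduced, 25.5, 33.6 and 23.01 at day 5 and 25.4, 26.7 and 23.7 at day 7, with a limma adjusted p of 1.000 at day 7. Its induced libraries all lay above its uninduced ones, which held for 0.372% of all rows. KRR1 was named for its small p within its list, so this pattern is not independent of its choice. The cap-binding protein EIF4E, a textbook MYC target, had 19.7, 11.99 and 10.9, 29.98, 19.99 and 27.7 and 12.5, 38.2 and 27.9 TPM, and its day 7 values overlapped the uninduced ones.

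Binding was covered by 1 list of 482 peaks comparing chromatin immunoprecipitation of wild-type Z138 with that of clone 7 after 7 days of doxycycline, with 1 library a side and so no test. No peak overlapped any of the 41 members, the span within 10 kb or that within 50 kb of them. Within 10 kb, the other lists of these pathways likewise had 0 genes with a peak, apart from 1 of 42 small subunit factors. The share over all genes was not taken, so the 0 is not a result particular to the members. Among the other processing lists, IMP4, a protein of the U3 particle, was overlapped by a peak at chr2:130340457-130355012 with the authors' −log10 p of 2.57, and its expression was 114, 91.7 and 90.2 TPM uninduced, 77.1, 102 and 79.4 at day 5 and 83.6, 100.3 and 78.2 at day 7. This peak was 1 of 5 within 10 kb and of 13 within 50 kb of IMP4. Their −log10 p lay between 2.17 and 2.65, so the stretch of weak peaks reached well beyond the gene. The product of the pathway was represented as well: of 5 annotated units of the ribosomal RNA precursor 3 were overlapped, by 8 peaks on chromosome 21. The strongest had −log10 p of 21.8 at chr21:8397012-8442141. The unit RNA45SN5 had no assigned chromosome, so no peak could be matched to it. RNA45SN4 was listed under chromosome 22 at bases 122273 to 135645, which may be positions on an unplaced sequence. Its lack of a peak is therefore not a result. All 5 units are near-identical repeats, so a read's place among them is uncertain.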

How the data were processed

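The authors deposited expression as TPM in 1 table covering all 9 libraries; RNA libraries came from a stranded mRNA kit, per the labels' protocols. Per the submitters' processing notes the tools included HISAT2 2.1, StringTie 1.3.4 and Genrich 1.0 with build hg38, without stated roles; the annotation release is not given. The columns headed day 0 were taken as the uninduced samples of that number. The deposited peak list holds a score, a signal value and a −log10 p per peak, written by the authors' caller. Depth is unknown, so no counting interval is given.

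Values were taken as log2(TPM + 1), which understates changes of low genes. Rows reaching 1 TPM in 3 or more libraries, 15045 in all, were fitted with limma 3.58.1 in R 4.3.3, with an intensity trend and Benjamini-Hochberg adjustment over all of them. Day comparisons used the group as their sole term, and number comparisons used number and group, with all 3 pairs of numbers and an F test. The code was tested on simulated data. Apart from planted changes these held no offset between replicate numbers, so they do not show how the day tests behave with one. In the day comparisons, p-values measure the spread between 3 replicates of 1 clone. In the number comparisons they measure the spread left over the 3 times, with 1 library of each number at each time. If the libraries of a number share a vial, which is not stated, they are not independent cultures.

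Members and lists were chosen with earlier results of these data known. Tests are given for MYC and, by smallest p, for at most 10 members past the threshold in each direction, or for 5 members where fewer than 5 passed by day; for up to 4 genes past the threshold, or else 2, from each other list; and for C12orf45 and DNMT3A. Log2 differences of the remaining members were added after their values were seen. Promoter sequences are from RefSeq, GRCh38.p14. The result of 1 cell marker is not reported here.

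Deviations from the group means correlated above 0.1 in 8 of 9 same-numbered library pairs (0.081 to 0.44; other pairs −0.41 to 0.19), and since 1 did not, the numbers were not taken as pairs. Alternatives changed the pseudocount, filter, scaling, trend, covariates and libraries.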

Additional observations from a re-analysis of the deposited data

How the results depend on the processing

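In the comparisons of days, 0 members passed under any alternative run. Leaving out 1 library moved the member median between −0.34 and 0.082 at day 5, −0.12 and 0.16 at day 7, −0.077 and 0.36 for day 7 against day 5, and −0.15 and 0.096 for both induced groups. All rows passing numbered 1 to 3, 0 to 3, 1 to 3 and 1 to 4 in those fits, 3, 1, 4 and 0 without a filter, and 4 at day 7 and 5 for day 7 against day 5 with the 2 groups alone. The replicate block narrowed the reach of the median 95% interval on either side of a member at day 5 and day 7 from 0.54 to 0.29 and left 0 members past the threshold in each; at an unadjusted p under 0.05 it gave 0 members at day 5 and day 7, 1 between the days and 1 for both groups, and 771, 899, 591 and 904 rows. Over all comparisons, values of single genes kept their direction and their side of the threshold in 3048 cases, lost the call in 534, gained it in 3 and turned sign in 32, 30 of them on leaving out a library. Without 1 library the log2 difference at day 5 ran from −0.15 to 0.00073 for MYC, −0.43 to 0.0051 for BYSL, −0.47 to 0.025 for POLR1A, −0.40 to 0.078 for POLR2L and −0.033 to 0.38 for SAT1. At day 7 it ran from −0.056 to 0.088 for MYC, −0.40 to 0.032 for UBTF, −0.17 to 0.023 for FBL, −0.078 to 0.29 for RRS1, −0.10 to 0.016 for POLR1E and −0.060 to 0.052 for DNMT3A. Between the days it ran from −0.40 to 0.12 for C12orf45. For both induced groups it ran from −0.066 to 0.014 for MYC, −0.35 to 0.013 for UBTF, −0.28 to 0.020 for BOP1, −0.29 to 0.045 for RRP12, −0.21 to 0.0064 for WDR12, −0.16 to 0.026 for FBL and −0.82 to 0.14 for POLR2F. In number 2 against 3 it ran from −0.20 to 0.076 for DNMT3A and −0.072 to 0.66 for C12orf45. DNMT3A at day 7 was 0.028 under median centring and 0.028 under quantile scaling.

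Between numbers no alternative called a member lower. Members called higher in number 2 against 1 were 24 under centring, 19 under quantile scaling, 24 with a pseudocount of 0.1, 33 at a minimum of 5 TPM, 33 without the group term, 14 without the trend, 5 without a filter and 3 to 23 without 1 library, with medians of 0.34 to 0.62. Against number 3 they were 12, 11, 15, 23, 29, 1, 0 and 0 to 34 in that order, with medians of 0.46 to 0.63, and for any difference 16, 13, 19, 25, 29, 6, 1 and 1 to 30. Of all rows tested, those called numbered 1227 without a filter and 717 to 2258 without 1 library against 1; 4 without a filter, 236 without the trend, 1769 without the group term and 1 to 1923 against 3; 0 without a filter, 44 at a minimum of 5 TPM, 0 without the trend and 0 to 10 for number 3 against 1; and 368, 1038 without the trend and 251 to 1620 for any difference. The member median of number 3 against 1 was −0.15 to 0.098. The medians of number 2 against 1 and against 3 kept their sign in every fit named here; why the counts varied was not tested.

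With peaks of −log10 p of at least 3, or with 50 kb in place of 10 kb, there were again 0 members with a peak.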
